A study of Mus musculus with 8 samples.

Results

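Mouse haematopoietic stem cells carried measurable RNA values for 172 processed pseudogenes of ribosomal protein genes, out of 278 symbols of that kind and 33641 symbols in all. A member is a symbol that names a ribosomal protein gene followed by "-ps", with or without a number, and that reached at least 1 TPM (transcripts per 1000000) in at least 2 of the 8 libraries. The other 106 symbols stayed under that level. The 172 members derive from 51 parent genes, the parent being the symbol before "-ps". The level chose the members, so their levels are described without a test, and only the differences between genotypes are tested.

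The cells were SLAM-sorted haematopoietic stem cells from the bone marrow of C57BL/6 mice carrying the Mx1-Cre transgene, an interferon-inducible recombinase that also acts in cells other than stem cells. All mice received 6 injections of polyI:C at 10 mg per kg on alternate days, and the cells were taken 1 week after induction. There were 4 groups of 2 libraries, of which the first is wild type. The Scribble-/- libraries are called here Scribble null. The libraries labelled Taz-/-;Yap1-/- are called Yap1 Taz null, and those that carry Scribble-/- as well as Taz-/-;Yap1-/- are called triple null. The design text speaks of independent biological samples with experimental replicates, so the spread between the 2 libraries of a group may be technical, and the p-values measure only that spread.

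A processed pseudogene is a copy of a messenger RNA that was reverse transcribed and inserted elsewhere in the genome, and it therefore lacks the introns of its parent. Ribosomal protein genes are short, very highly expressed and rich in such copies, and every cell needs their products, the proteins of the large subunit (Rpl) and the small subunit (Rps) of the cytosolic ribosome. A short read from a stretch that parent and copy share does not by itself say which of them it came from. For that reason each member is given alone and summed with its parent.

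The wild-type libraries listed 14024 and 14409 symbols at 1 TPM or more, the lowest of the 8, and the null libraries 14564 to 14970. TPM keeps no record of depth, so the number of reads behind a value is unknown, and no source used here says how reads with several matches were treated or whether strand was used. Summed markers of haematopoietic stem cells lay between 1690 and 2161 TPM with all 8 genes detected. Summed granulocyte markers lay between 0.503 and 4.73 TPM, with S100a8 listed at 0 throughout. Summed monocyte and macrophage markers lay between 176 and 293 TPM, of which Lyz2 alone read 176 to 292 TPM. The summed erythroid markers were 19.9 to 22.8 TPM in wild type and 44.9 to 57.3 TPM in the triple null libraries. Some lists split wild type from all null libraries: T lymphocyte markers summed to 8.49 and 10.0 TPM in wild type and 12.9 to 17.8 TPM in the null libraries, and endothelial and stromal markers to 32.4 and 38.9 TPM against 41.3 to 59.5 TPM. Ly6a, a stem cell surface marker, read 359 and 417 TPM in wild type and from 148 to 255 TPM in the null libraries. The part of these differences in the results below was not tested. In bulk RNA, fewer cells of a type and less RNA per cell cannot be told apart. The targeted genes gave no check of the labels, because TPM covers the whole gene and not the deleted exons alone. Wild type gave Scrib at 8.19 and 9.29 TPM, Yap1 at 2.00 and 2.15 TPM and Wwtr1, the gene for Taz, at 0.730 and 1.19 TPM. Scrib had values of 6.26 and 7.63 TPM under the Scribble null label. Under the Yap1 Taz null label Yap1 had 2.13 and 6.63 TPM, and Wwtr1 had 1.10 and 1.15 TPM. Under the triple null label Scrib had 14.5 and 7.54 TPM, Yap1 2.25 and 2.37 TPM and Wwtr1 1.92 and 0.775 TPM, so that none of the genes was below wild type in every library labelled as lacking it. Directions are therefore stated for the libraries as labelled.

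In the GENCODE M21 annotation of the mm10 mouse genome, 163 members are processed pseudogenes, 5 are transcribed processed pseudogenes and 4 are listed as protein coding. No same-strand or opposite-strand gene overlaps 104 of them. Another 45 overlap a gene on the other strand only, 20 lie in an intron of a gene on the same strand and 3 overlap an exon on the same strand, where reads of that gene could be counted for them. Identity to the parent's transcript ran from 68.1% to 100% with a median of 97.9%. Rpl13-ps1 is annotated in the opposite orientation to its match, and Rpl18-ps1 aligned over only 7.81% of its length and is left out of the counts by number of differences. An open reading frame of at least 99% of the parent's coding length is intact in 69 members.

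The copies that differed most between genotypes are nearly letter-for-letter copies of their parents, and the sequences below show how little separates them. Each pair is read 5′ to 3′ on the coding strand of GENCODE M21 (mm10), and capitals mark the bases that differ between copy and parent. In the names of substitutions, the parent's base comes first, then its position counted from the A of the parent's start codon, then the base of the copy. Rpl35a-ps2 (chr1:181241988-181242320, minus strand) is one of 4 members of 333 bases with identical values, all of which carry the single substitution G156A. Rps13-ps1 (chr8:87047689-87048226, plus strand) carries T411C and A429G. Rpl34-ps1 (chr6:71124610-71124963, plus strand) carries T132C and C318G. Rpl3-ps1 (chrX:13202571-13203780, plus strand) carries C57A and T786C. All of these substitutions fall on the third base of a codon. The windows shown are chr1:181242135-181242195, chr8:87048100-87048160, chr6:71124711-71124771 and chrX:13202598-13202658.
Rpl35a-ps2: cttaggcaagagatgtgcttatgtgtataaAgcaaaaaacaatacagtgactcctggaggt
Rpl35a: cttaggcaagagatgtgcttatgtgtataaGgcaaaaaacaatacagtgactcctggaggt
Rps13-ps1: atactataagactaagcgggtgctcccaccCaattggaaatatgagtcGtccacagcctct
Rps13: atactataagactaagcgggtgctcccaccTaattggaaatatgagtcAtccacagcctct
Rpl34-ps1: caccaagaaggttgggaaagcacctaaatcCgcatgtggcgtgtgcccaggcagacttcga
Rpl34: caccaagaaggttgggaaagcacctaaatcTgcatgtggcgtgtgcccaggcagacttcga
Rpl3-ps1: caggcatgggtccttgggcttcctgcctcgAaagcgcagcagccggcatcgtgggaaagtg
Rpl3: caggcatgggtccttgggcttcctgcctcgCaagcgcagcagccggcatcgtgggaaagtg

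A pair of contrasting members set the ends of the range. Rps15a-ps8 (chr4:53791070-53791456, minus strand, 387 bases) has 30 differences from its parent, of which 12 fall in its first 90 coding bases, chr4:53791367-53791456. Rpl31-ps8 (chr15:90764279-90764656, minus strand, 378 bases), the member with the highest level, has 0 differences, and its first 90 coding bases, chr15:90764567-90764656, are those of Rpl31.
Rps15a-ps8: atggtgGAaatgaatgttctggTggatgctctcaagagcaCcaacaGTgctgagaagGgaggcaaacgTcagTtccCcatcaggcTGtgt
Rps15a: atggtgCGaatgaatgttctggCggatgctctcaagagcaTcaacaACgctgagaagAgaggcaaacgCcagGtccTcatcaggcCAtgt
Rpl31-ps8 and Rpl31: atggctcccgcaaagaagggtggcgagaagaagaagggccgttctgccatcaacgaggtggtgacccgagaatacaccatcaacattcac

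Levels were very uneven. The mean over the 8 libraries was under 5 TPM in 113 members, between 5 and 100 TPM in 46 and at least 100 TPM in 13, and the median member had 2.64 TPM. Only 89 members reached 1 TPM in every library. The members just inside the level by their second-highest value were Rpl23a-ps4 at 1.04 TPM, Rpsa-ps1 at 1.05, Rpl17-ps4 at 1.06 and Rpl9-ps3 at 1.10 TPM. Just outside stood Rpl31-ps23 at 0.996 TPM, Rpl7a-ps8 at 0.988, Rps2-ps4 at 0.977 and Rpl7-ps7 at 0.963 TPM. Families were also uneven: Rpl31 had 20 members, Rpl21 had 12, Rpl30 had 9, Rps15a had 8 and Rps12 had 7.

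Level went with likeness to the parent. The 10 members with 0 differences had a median of 783 TPM and held between 82.7% and 96.6% of all the members' TPM in a library. The 22 members with 1 or 2 differences had a median of 10.8 TPM, the 50 with 3 to 10 differences 3.69 TPM, the 57 with 11 to 30 differences 1.71 TPM and the 32 with more than 30 differences 1.59 TPM. All 13 members at 100 TPM or more had at most 2 differences. Likeness did not by itself bring a level, however. Of the 14 symbols with 0 differences, Rpl10-ps1, Rpl36a-ps2 and Rpl38-ps2 were listed at 0 in every library and Rps13-ps2 stayed under the level. These are descriptions across genes, which share families and libraries, and no test was applied.

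**Figure D1:**
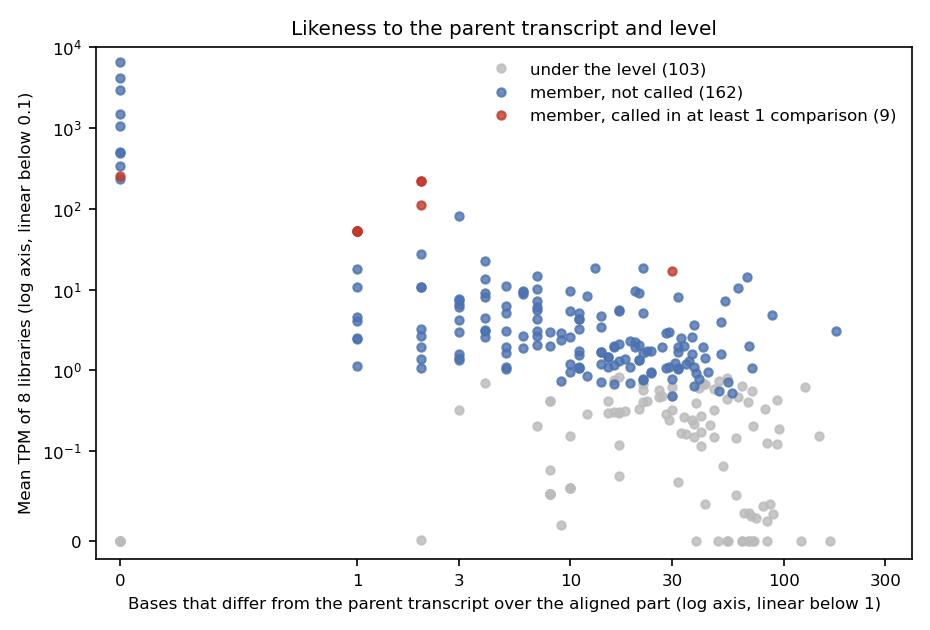
Mean TPM over 8 libraries (vertical, log scale) against the number of bases that differ from the parent's transcript (horizontal) for the ribosomal protein pseudogene symbols, with the called members marked. The members at 100 TPM or more sit at 0 to 2 differences, and the one called member with many differences is Rps15a-ps8 at 30.

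Together the members made up 2.14% and 2.31% of all TPM in the wild-type libraries. In the Scribble null libraries they made up 1.61% and 1.69%, in the Yap1 Taz null libraries 1.95% and 1.90%, and in the triple null libraries 2.08% and 1.92%. The wild-type libraries were thus the highest of the 8. The 9 members described next held 3684 and 3292 TPM in wild type and between 59.9 and 645 TPM in the other 6 libraries. The other 163 members together held 17701 and 19791 TPM in wild type and between 16040 and 20197 TPM in the others. Both Scribble null libraries, at 16039.7 and 16872.5 TPM, lay below both wild-type libraries there. The Yap1 Taz null and triple null groups overlapped wild type.

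Each null group was compared with wild type by limma on log2(TPM + 1), with Benjamini-Hochberg adjustment of the p-values across the 16064 symbols that passed the same level, and a change was called at an adjusted p under 0.05. On this scale the change of a low gene is understated. Under the Scribble null label 9 members fell and 0 rose, against a background in which 0.71% of all tested symbols fell and 0.591% rose. Under the Yap1 Taz null label 8 members fell and 0 rose, against 0.517% and 0.473%, and in the triple null libraries 8 fell and 0 rose, against 0.355% and 0.224%. A limma F test for any difference among the 4 genotypes called 8 members, against 1% of all tested symbols. The 3 comparisons share the wild-type libraries, so a high or low wild-type value enters all of them. The called members have only 6 patterns of values, because 4 of them, copies of Rpl35a, have the same value in each library. The median log2 change of all members was -0.05, -0.02 and -0.02 in the 3 comparisons, beside 0.14, 0.14 and 0.12 over all tested symbols. At an unadjusted p under 0.05 stood 22, 22 and 25 members.

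Rpl3-ps1 is a copy of the gene for RPL3, a large-subunit protein that reaches toward the peptidyl transferase centre. Its TPM was 435 and 424 in wild type, 2.60 and 2.84 in Scribble null, 5.75 and 2.94 in Yap1 Taz null and 1.97 and 5.31 in triple null. Both wild-type libraries stood far above all the others, and the triple null range overlapped both other null groups. It fell in all 3 comparisons, with log2 changes of -6.86 in Scribble null (SE 0.395, limma adjusted p = 0.000114), -6.38 in Yap1 Taz null (adjusted p = 0.000157) and -6.64 in triple null (adjusted p = 0.00015).

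Rpl34-ps1 copies the gene for RPL34, another protein of the large subunit. It read 980 and 716 TPM in wild type, 14.1 and 14.9 in Scribble null, 22.7 and 7.30 in Yap1 Taz null and 17.3 and 5.27 in triple null. The wild-type libraries were again the only high ones, and the spread within the null groups was wider than for Rpl3-ps1. The log2 changes were -5.75 (SE 0.574, limma adjusted p = 0.00296), -5.90 (adjusted p = 0.00276) and -6.29 (adjusted p = 0.00224). Leaving out wild type 1 took the Scribble null change to an adjusted p of 0.054.

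The 4 copies of Rpl35a, whose human counterpart is mutated in some patients with Diamond-Blackfan anaemia, are Rpl35a-ps2, Rpl35a-ps3 (chr17:29136972-29137304), Rpl35a-ps4 (chr2:108874926-108875258) and Rpl35a-ps6 (chr5:123255481-123255813). All lie on the minus strand. Rpl35a-ps3 and Rpl35a-ps6 sit in introns of Rab44 and Wdr66 that are transcribed from the other strand. Each was given 206 and 199 TPM in wild type, 2.78 and 2.88 in Scribble null, 2.22 and 3.95 in Yap1 Taz null and 3.05 and 3.38 in triple null. A gene with another name, Gm10243 (chr6:48523518-48523850, plus strand), had the same sequence and the same 8 values, so these are 5 equal shares of 1 measurement rather than 5 measurements. The log2 change of each share was -5.73 in Scribble null (SE 0.276, limma adjusted p = 4.91e-05), -5.67 in Yap1 Taz null (adjusted p = 3.81e-05) and -5.59 in triple null (adjusted p = 4.57e-05).

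Rps13-ps1 copies the gene for RPS13, a small-subunit protein. Its TPM was 830 and 850 in wild type, 12.7 and 12.6 in Scribble null, 9.37 and 15.4 in Yap1 Taz null and 14.6 and 16.7 in triple null. No null library came near the wild-type values. The log2 changes were -5.94 (SE 0.228, limma adjusted p = 2.02e-05), -6.01 (adjusted p = 1.06e-05) and -5.66 (adjusted p = 1.49e-05).

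Rps15a-ps8, from the small-subunit gene Rps15a, was lower in level and is the called member least like its parent, at 92.2% identity. It read 47.5 and 48.6 TPM in wild type, 4.38 and 5.95 in Scribble null, 6.70 and 9.56 in Yap1 Taz null and 4.18 and 7.19 in triple null. The groups again split into wild type above and all null libraries below. Its log2 change was -3.0 in Scribble null (SE 0.313, limma adjusted p = 0.00376), -2.44 in Yap1 Taz null (adjusted p = 0.0117) and -2.91 in triple null (adjusted p = 0.00576). These calls need both wild-type libraries: without wild type 1 the adjusted p was 0.0596, 0.123 and 0.0864, and without wild type 2 it was 0.0536, 0.0837 and 0.0735. The Yap1 Taz null call was also lost without Yap1 Taz null 1, at 0.0872.

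Rpl10-ps3 behaved differently from the other called members. It lies at chr9:50344201-50344968 on the minus strand, is listed as protein coding in GENCODE, and matches the transcript of Rpl10, whose product joins the large subunit late in its maturation, with 0 differences over the 740 of its 768 bases that align. Its TPM was 566 and 458 in wild type, 16.2 and 12.0 in Scribble null, 213 and 39.1 in Yap1 Taz null and 594 and 152 in triple null. The Scribble null and Yap1 Taz null libraries lay below both wild-type libraries, while the triple null libraries overlapped them and held the highest value of the 8. The log2 change was -5.09 in Scribble null (SE 0.797, limma adjusted p = 0.0315), -2.46 in Yap1 Taz null (adjusted p = 0.229) and -0.76 in triple null (adjusted p = 0.764). The Scribble null call was lost without Scribble null 1 (adjusted p = 0.133), Scribble null 2 (0.0724), wild type 1 (0.235) or wild type 2 (0.104), and without the filter on low values (0.106).

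**Figure D2:**
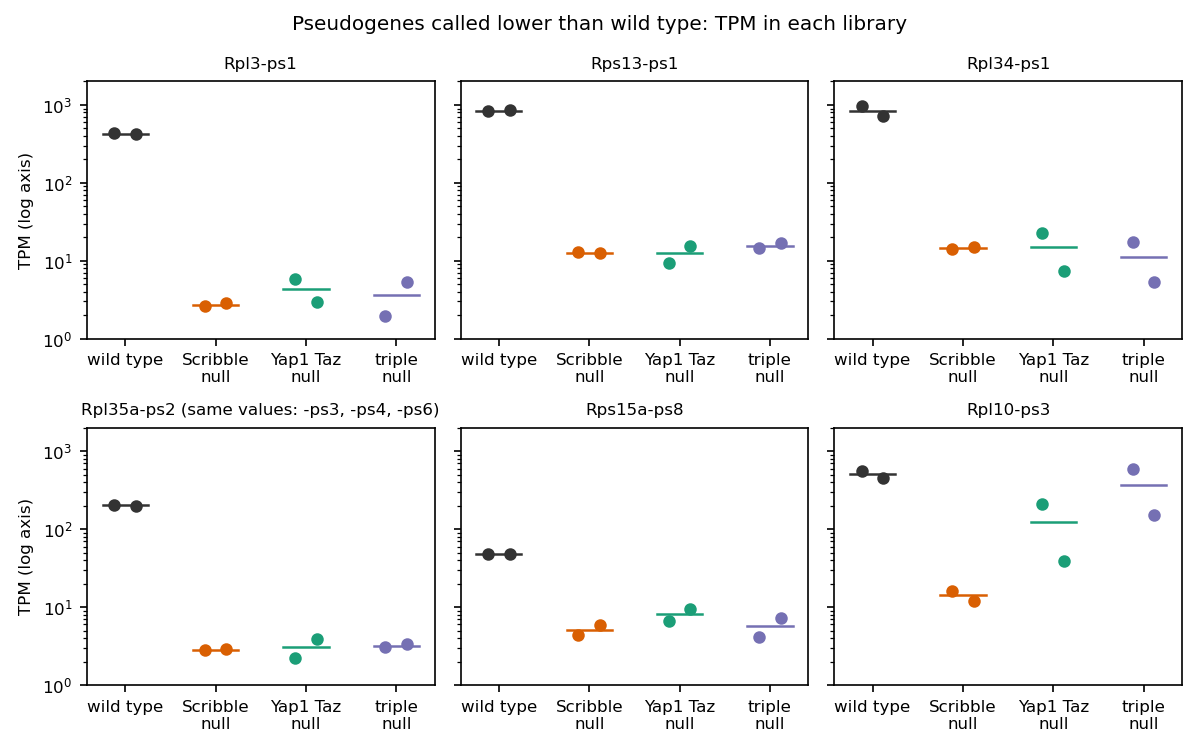
TPM of each called pseudogene in each of the 8 libraries (log scale), grouped by genotype, with the 4 copies of Rpl35a drawn once. For all but Rpl10-ps3 the 2 wild-type points stand above every null point, while Rpl10-ps3 reads 594 TPM in one triple null library.

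The effect labelled Scribble loss was also compared between libraries with and without Yap1 and Taz, by a contrast fitted in the same model after the data had been seen. For Rpl10-ps3 the change was -5.09 from wild type to Scribble null and 1.70 from Yap1 Taz null to triple null, a difference of 6.79 (SE 1.13, limma adjusted p = 0.0492). For Rpl3-ps1 the changes were -6.86 and -0.25, for Rps13-ps1 -5.94 and 0.35, for Rpl34-ps1 -5.75 and -0.39 and for the copies of Rpl35a -5.73 and 0.08. Their differences passed the test at adjusted p values of 0.00154, 0.000199, 0.0327 and 0.000457 respectively. The wild-type libraries enter only the first of the 2 changes. Apart from Rpl10-ps3, these members were high in wild type alone and already low in Yap1 Taz null. Their differences therefore repeat the wild-type excess and cannot show that the change depends on Yap1 and Taz. The difference for Rpl10-ps3 missed the threshold with median ratio scaling (adjusted p = 0.0535), the other pseudocount (0.0553), no filter (0.156) and in the series-wide table, where it was 0.31 (0.485). It also missed it with any library left out but Yap1 Taz null 1 or triple null 2, at up to 0.221. That for Rpl34-ps1 missed it with the other pseudocount (0.0505), with no filter (0.126) and with any library left out but Yap1 Taz null 1 or triple null 2, at up to 0.168. That for Rpl35a-ps2 was 4.72 (0.0798) in the series-wide table. The contrast called 8 members, against 0.635% of all tested symbols, and 0 family sums, against 0.579% of all rows. Rps15a-ps8 had a difference of 2.53 with an adjusted p of 0.0598.

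The members with the highest levels did not pass the test in these fits. Rpl31-ps8 read 5797 and 6721 TPM in wild type, 6468 and 5485 in Scribble null, 6809 and 6785 in Yap1 Taz null and 7545 and 6827 in triple null. Rpl28-ps1, a copy of another large-subunit gene, read 4092 and 4395 TPM in wild type, and from 3278 to 4366 in the null libraries. Rps23-ps1, a copy of the gene for a protein near the decoding centre of the small subunit, read 3297 and 3210 TPM in wild type and from 2154 to 3305 in the null libraries. For Rpl31-ps8 only Scribble null overlapped wild type, and the Yap1 Taz null and triple null values lay above both wild-type values. For Rpl28-ps1 both Scribble null values lay below both wild-type values, and the other null groups overlapped wild type. For Rps23-ps1 the Scribble null and Yap1 Taz null values lay below both wild-type values, and triple null overlapped wild type. Rpl27-ps3 read 1957 and 1788 TPM in wild type and from 1221 to 1492 in the null libraries. Its wild-type values were the highest of the 8, with log2 changes of -0.53, -0.44 and -0.36 and limma adjusted p values of 0.062, 0.131 and 0.266. In Scribble null it passed with median ratio scaling, at -0.69 (adjusted p = 0.0359), and without Scribble null 2, at -0.62 (0.0475). Rps23-ps1 likewise passed in Scribble null without Scribble null 2, at -0.59 (0.0401).

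Among the other members with 0 differences, Rps16-ps2 ranged from 925 to 1154 TPM, with overlapping groups. Rpl15-ps3 ranged from 306 to 600 TPM, and both triple null values lay above both wild-type values. Rps12-ps3 ranged from 249 to 426 TPM, and both Scribble null values lay below both wild-type values. None of these members was called. Rpl10a-ps1 had low and high values within the same groups, reading 312 and 612 TPM in wild type, 328 and 565 in Scribble null, 615 and 672 in Yap1 Taz null and 322 and 624 in triple null. Rps6-ps4, a copy of the gene for the S6 kinase substrate RPS6, read 70.0 and 258 TPM in wild type, 154 and 128 in Scribble null, 302 and 335 in Yap1 Taz null and 261 and 363 in triple null. The wild-type range held both Scribble null values, and the limma adjusted p was 0.964, 0.318 and 0.435.

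Over the 163 members that were not called, the log2 change ran from -2.60 (Rpl30-ps9) to 1.85 (Rps19-ps4) in Scribble null, from -2.30 (Rps18-ps3) to 4.16 (Rpl36a-ps4) in Yap1 Taz null and from -1.60 (Rps18-ps3) to 2.25 (Rpl29-ps1) in triple null. They were spread to both sides, with 76 above and 87 below 0 in Scribble null, 85 and 78 in Yap1 Taz null and 83 and 80 in triple null. Some of the extremes were 1 library. Rpl36a-ps4, at 75.2% identity, read 107 TPM in Yap1 Taz null 2 and at most 3.38 TPM in any other library. Rps19-ps4 read 55.5 TPM in Scribble null 1 and at most 5.66 TPM elsewhere.

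Rpl28-ps2, the member least like its parent at 68.1% identity, read 1.26 and 2.78 TPM in wild type and 2.16 to 5.43 TPM in the null libraries. Rpl29-ps1, at 83.3% identity, read 0.581 and 1.99 TPM in wild type, 4.32 and 9.53 in Scribble null, 0.643 and 0.948 in Yap1 Taz null and 14.7 and 5.80 in triple null. Its libraries labelled with Scribble loss were the high ones in both backgrounds, but the change did not pass the test, with limma adjusted p values of 0.148 in Scribble null and 0.172 in triple null. Rplp0-ps1 and Rplp1-ps1 reached 1 TPM in the wild-type libraries alone and Rpsa-ps1 in the triple null libraries alone, and none of them was called.

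When each family was summed, adding all its pseudogene symbols to the parent, most of the large falls were no longer called. Of 51 families, 1 rose and 0 fell in Scribble null, where 0.598% of the 15892 rows tested rose and 0.661% fell. In Yap1 Taz null 1 rose and 1 fell, against 0.422% and 0.472%, and in triple null 1 rose and 1 fell, against 0.22% and 0.302%. Median ratio scaling turned this balance: 0 rose and 5 fell in Scribble null, 0 and 2 in Yap1 Taz null and 0 and 1 in triple null. The shares of all rows called under that scaling are not given here, so those counts have no background beside them. In the main fit the F test for any difference called 1 family, against 0.956% of all rows. The family medians were -0.27, -0.21 and -0.14 on the log2 scale, beside 0.15, 0.14 and 0.12 over all rows. The highest of the 8 libraries exceeded the lowest by a median of 1.48-fold over the family sums, with a maximum of 3.57-fold for Rpl29. The parents alone were as even, with a median of 1.48-fold and a maximum of 3.66-fold. Over the 13 members at 100 TPM or more that ratio ran from 1.25-fold to 221-fold.

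The 4 families with the large falls differed in how much the parent made up. For Rpl35a the pseudogenes went from a wild-type mean of 813 ± 21.7 TPM (SD, n = 2) to a mean of 18.7 TPM over the 6 null libraries, while the parent went from 914 ± 20.0 to 1293 TPM. The sum went from 1728 ± 41.6 to 1312 TPM, so the parent's gain of 379 TPM was smaller than the loss on the copies. For Rps13 the pseudogenes went from 842 to 18.5 TPM, the parent from 1351 to 1726 TPM and the sum from 2192 to 1745 TPM. For Rpl34 the pseudogenes went from 848 to 13.7 TPM, the parent from 687 to 870 TPM and the sum from 1535 to 883 TPM. For Rpl3 the pseudogenes went from 431 to 4.7 TPM, the parent from 1375 to 1527 TPM and the sum from 1806 to 1531 TPM. In every one of the 4 the parent's null mean was above its wild-type mean and the sum's null mean was below.

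TPM divides by length, so a read moved from a short copy to a longer parent adds less to the parent than it takes from the copy. How far this enters the sums was not tested. The copy and parent transcript measure 333 and 491 bases for Rpl35a, 354 and 624 for Rpl34, 538 and 589 for Rps13 and 1210 and 1351 for Rpl3. None of these parents passed the test alone. The log2 changes of the parent were 0.36, 0.47 and 0.63 for Rpl35a, 0.48, 0.24 and 0.29 for Rpl34, 0.32, 0.32 and 0.41 for Rps13 and 0.03, 0.17 and 0.25 for Rpl3, each in the order of the comparisons above.

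The summed log2 changes in that order were -0.36, -0.22 and -0.14 for Rpl3 (SE 0.103), with limma adjusted p values of 0.132, 0.379 and 0.649. For Rps13 they were -0.37, -0.37 and -0.27, with adjusted p values of 0.173, 0.237 and 0.475. For Rpl35a they were -0.54, -0.41 and -0.28, with adjusted p values of 0.168, 0.337 and 0.605. The sum for Rpl34 fell in Yap1 Taz null, by 0.89 (SE 0.152, adjusted p = 0.0453), and had values of -0.65 in Scribble null (adjusted p = 0.0937) and -0.84 in triple null (adjusted p = 0.0763). That call was lost with any of the 8 libraries left out, at adjusted p values from 0.0536 to 0.332.

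The family of Rpl10 differed between the null groups, at copy and parent lengths of 768 and 799 bases. In Scribble null the pseudogenes went from a wild-type mean of 521 to 21.5 TPM, while the parent went from 2756 to 2805 TPM and the sum from 3277 to 2827 TPM. In Yap1 Taz null the pseudogenes, parent and sum were 136, 3327 and 3463 TPM, and in triple null 379, 3153 and 3532 TPM. None of the summed log2 changes, -0.22, 0.08 and 0.11, passed the test. The family of Rps15a, in which Rps15a-ps8 is a small share, had sums that differed by -0.10, -0.24 and -0.06.

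**Figure D3:**
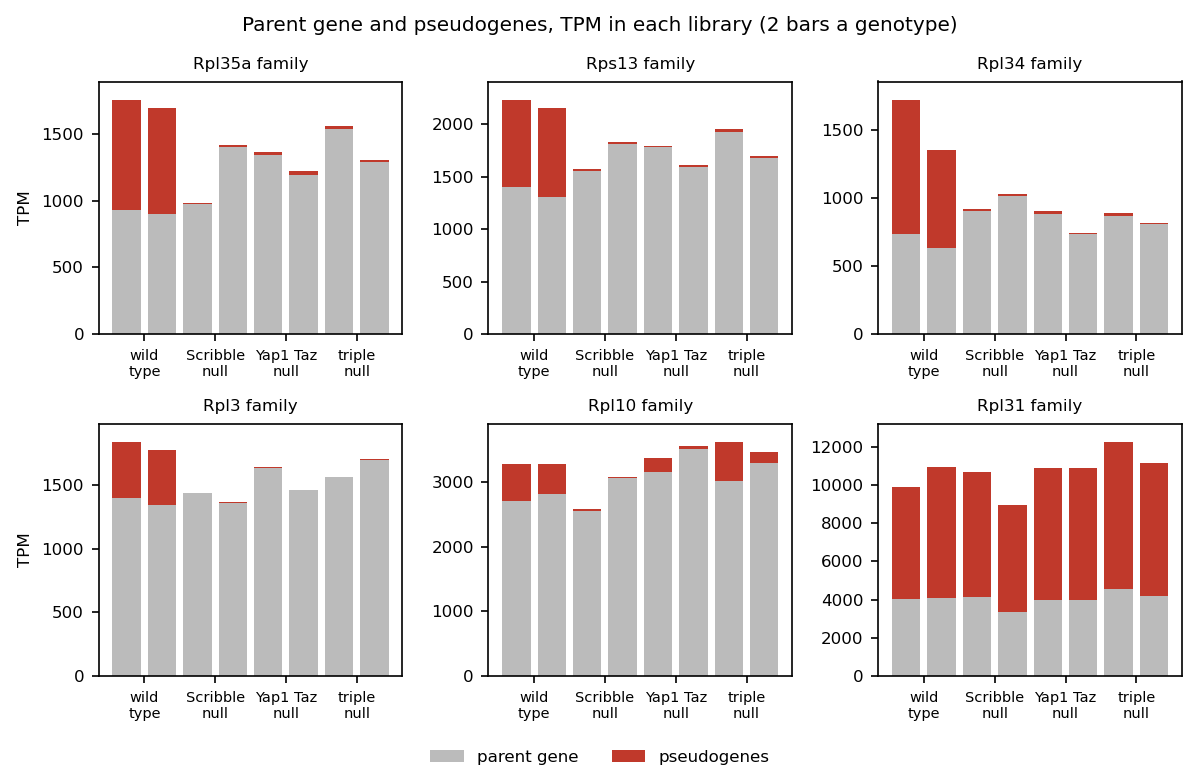
TPM in each library for the parent gene and for its pseudogenes, stacked, in 5 families of called members and, for comparison, the Rpl31 family, with 1 panel a family. The pseudogene part is visible in wild type for Rpl35a, Rps13, Rpl34 and Rpl3 and almost gone in the 6 null libraries, while the total changes less.

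As a share of the family's TPM, the pseudogenes of Rpl34 made up 57.0% and 53.0% in wild type and at most 2.5% in the null libraries. Those of Rpl35a made up 47.2% and 47.0% and then at most 2.6%, those of Rps13 37.3% and 39.5% and then at most 1.3%, and those of Rpl3 23.7% and 24.0% and then at most 0.4%. The share for Rpl10 was 17.5% and 14.3% in wild type, 0.83% and 0.70% in Scribble null, 6.5% and 1.5% in Yap1 Taz null and 16.7% and 4.5% in triple null. The share for Rpl31 stayed between 59.6% and 63.7%. Over all 51 families together it was 11.3% and 12.7% in wild type and between 9.26% and 11.9% in the null libraries.

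The other families called as sums were Rpl30, Rps18 and Rpl29, and none of their named pseudogenes was called. Rpl30 rose by 0.60 in Scribble null (SE 0.107, limma adjusted p = 0.0455), and had values of 0.43 (adjusted p = 0.146) and 0.55 (adjusted p = 0.0996) in the other 2 comparisons. Rps18 rose by 0.79 in Yap1 Taz null (SE 0.132, adjusted p = 0.0431) and by 0.86 in triple null (adjusted p = 0.0425). Rpl29 fell by 1.83 in triple null (SE 0.138, adjusted p = 0.000974), and that call held with each library left out in turn, at adjusted p values up to 0.0208. The Rpl30 call was lost with any library but Scribble null 2 left out, at up to 0.268, and the Rps18 calls with any library left out but Scribble null 1 or 2, at up to 0.255 and 0.341. Without the filter on low values the calls for Rpl34, Rpl30 and Rps18 were lost and that for Rpl29 was kept. Median ratio scaling also lost the calls for Rpl30 (0.139) and Rps18 (0.113 and 0.0935), kept those for Rpl34 and Rpl29, and added a fall of Rpl29 in Yap1 Taz null, with a log2 change of -0.90 (0.0294).

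Copies of the same parents also exist under names that do not carry "-ps". The annotation was searched for transcripts at 90% identity or more to a parent over at least 80% of the shorter length. This found 586 of them over the parents of all 278 symbols of the kind, which include parents without a member. The ones named next were chosen after their values were seen. Gm12191 (chr11:49678710-49679057, minus strand) differs from Rpl30 by G96A alone. Gm13841 (chr5:115801677-115802159, minus strand) and Gm8210 (chr1:43189156-43189638, plus strand) have identical transcripts and differ from Rpl29 by C72A, C300T and T423C. The windows around G96A and C72A, chr11:49678932-49678992 and chr5:115802058-115802118, are shown because these copies carry the largest values among the called families.
Gm12191: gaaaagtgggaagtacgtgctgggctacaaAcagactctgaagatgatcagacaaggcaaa
Rpl30: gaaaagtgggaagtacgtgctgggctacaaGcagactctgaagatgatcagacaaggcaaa
Gm13841: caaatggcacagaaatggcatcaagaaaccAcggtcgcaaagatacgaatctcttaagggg
Rpl29: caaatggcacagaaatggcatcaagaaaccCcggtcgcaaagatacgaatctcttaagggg

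Gm12191 read 3948 and 3911 TPM in wild type and from 98.8 to 227 TPM in the null libraries. Its parent Rpl30 read 2497 and 2422 TPM in wild type and from 3161 to 3934 TPM in the null libraries, so the copy was high where the parent was low. With all copies included the family read 6584 and 6512 TPM in wild type and from 3508 to 4263 TPM in the null libraries. The sign of the family's change turned, and the wider sum for Rpl30 fell, with log2 changes of -0.68 (limma adjusted p = 0.029), -0.82 (adjusted p = 0.0124) and -0.74 (adjusted p = 0.0308).

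Gm13841 and Gm8210 each read 7.20 and 9.26 TPM in wild type and 13.4 in both Scribble null libraries. They read 415 and 447 TPM in Yap1 Taz null and 884 and 896 TPM in triple null, the opposite direction to the copies described so far. Rpl29 itself read 2155 and 2153 TPM in wild type, 1269 and 1698 in Scribble null, 1320 and 1263 in Yap1 Taz null and 588 and 594 in triple null. Summed with all copies, the family read 2242 and 2230 TPM in wild type, 1381 and 1800 in Scribble null, 2229 and 2235 in Yap1 Taz null and 2443 and 2462 in triple null. The called fall in triple null became a value of 0.13 (limma adjusted p = 0.732).

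For Rps18, Gm10260 (chr13:97760072-97760632, minus strand) read 429 and 487 TPM in wild type and from 4.99 to 10.0 TPM in the null libraries. Gm11361 (chr13:28257528-28258134, plus strand) read 411 and 379 TPM in wild type and from 2.18 to 7.30 TPM in the null libraries. Both copies were high in wild type alone, as Rps13-ps1 was. The wider sum for Rps18 had log2 changes of -0.20, 0.10 and 0.16, none of which passed the test. Among the families described first, the wider sums changed little for Rpl34, at -0.64, -0.88 and -0.83, of which the Yap1 Taz null value passed the test (adjusted p = 0.046), and were -0.66, -0.56 and -0.42 for Rpl35a, which then takes in Gm10243.

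**Figure D4:**
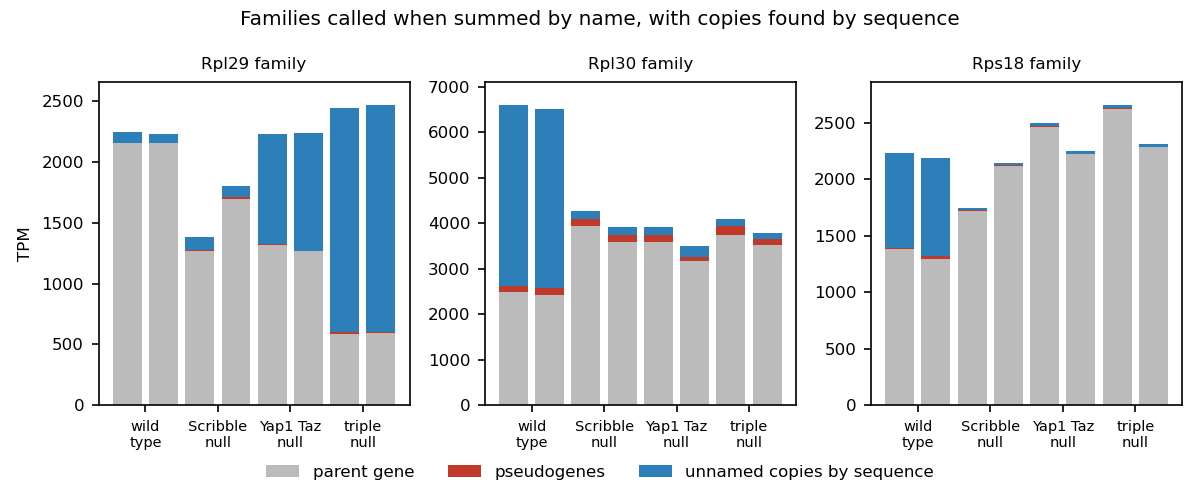
TPM in each library for the parent, its "-ps" pseudogenes and the unnamed copies found by sequence, stacked, for the Rpl30, Rpl29 and Rps18 families. The unnamed copies hold much of the Rpl30 total in wild type and much of the Rpl29 total in the triple null libraries.

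The study also holds a series-wide table of normalised values by Ensembl identifier for the same 8 libraries, which lists 132 of the members. In that table the split between copy and parent was often different, while the called members' direction was mostly the same where they were given a value. Rps13-ps1 read 622 and 760 in wild type and from 7.12 to 16.1 in the null libraries, and Rpl34-ps1 read 890 and 797 and then from 6.63 to 23.2. Among 121 members tested there, the 4 that fell in each comparison were Rpl34-ps1, Rpl35a-ps2, Rps13-ps1 and Rps15a-ps8. The share of all symbols called in that table is not given here, so this count has no background beside it. Rpl3-ps1 was listed at 0 in all 8 libraries there, and so were Rpl35a-ps3 and Rpl35a-ps4. Rpl35a-ps2 read 118 and 135 there in wild type and from 0 to 3.63 in the null libraries.

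Rpl10-ps3 showed the clearest disagreement. In the series-wide table it read 1999 and 2162 in wild type, 1563 and 1864 in Scribble null, 2130 and 2329 in Yap1 Taz null and 2354 and 2185 in triple null. The groups lay close together, the log2 change in Scribble null was -0.28 (limma adjusted p = 0.322), and the copy held 64.7% to 73.8% of the family in place of 0.70% to 17.5%.

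Members with 0 differences had no stable share of their family across the tables. The pseudogenes of Rpl28 held 57.7% to 64.9% of the family in the per-sample tables and 0.57% to 1.1% in the series-wide table, where Rpl28-ps1 was listed at 0. Those of Rps23 held 67.6% to 71.6% and 0.1% to 0.5%. For Rpl31 the shares were 59.6% to 63.7% and 96.2% to 97.2%, for Rpl15 13.3% to 23.8% and 91.2% to 95.0%, and for Rps6 2.5% to 12.6% and 69.9% to 76.6%. In each of these families the ranges in the tables did not overlap.

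**Figure D5:**
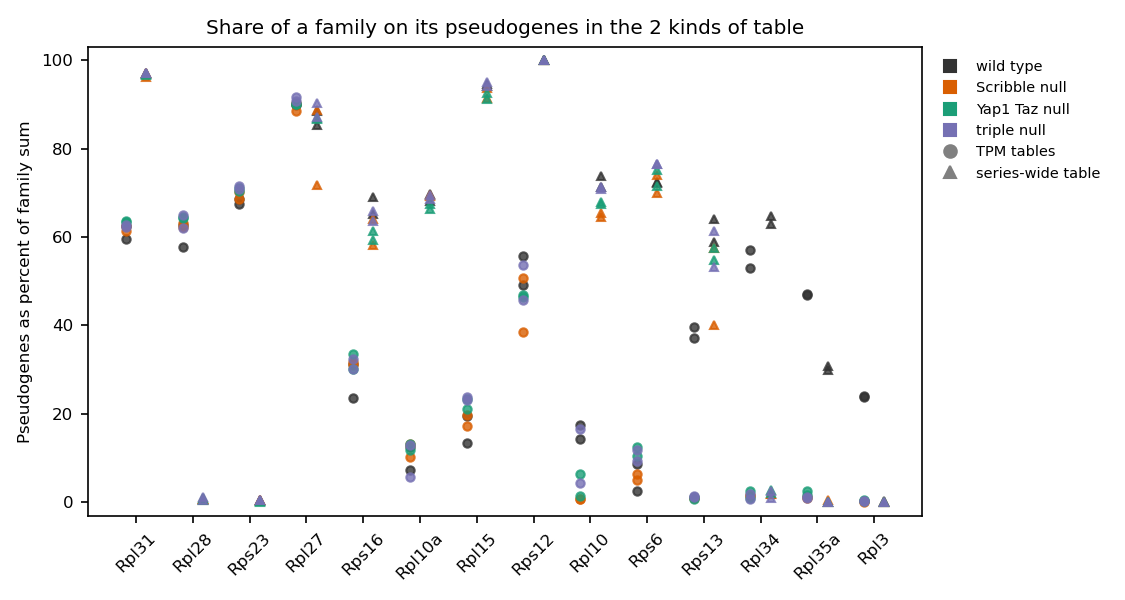
Share of each family's summed value held by its pseudogenes (percent), in the per-sample TPM tables and in the series-wide table, with 1 point for each of the 8 libraries, for families of members with 0 differences and of called members. Rpl28 and Rps23 lie near 60% to 70% in one table and near 0 in the other, and Rpl34 splits wild type from null libraries in both.

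The summed result also depended on the table for some families. In the series-wide table the sum for Rpl35a read 383 and 449 in wild type and from 806 to 1250 in the null libraries, with log2 changes of 1.19 (limma adjusted p = 0.0498), 1.37 (0.0252) and 1.43 (0.0332), so it rose in each comparison. The sum for Rpl3 read 718 and 770 in wild type and from 1127 to 1361 in the null libraries, with changes of 0.65 (0.0707), 0.82 (0.0294) and 0.82 (0.0428), of which the last pair passed the test. In the per-sample tables both sums had negative changes that did not pass it. The calls on the sums for Rpl30 (0.0892), Rpl34 (0.0803) and Rps18 (0.0527 and 0.081) were lost there, and that for Rpl29 was kept. For Rpl34 the series-wide table gave 1378 and 1267 in wild type and from 701 to 942 in the null libraries. In the Rps13 family, Rps13-ps2, a symbol with 0 differences that stayed under the level in the per-sample tables, read 481 and 566 in wild type and from 596 to 1172 in the null libraries.

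The 79 intact genes for cytosolic ribosomal proteins were tested alone. Over all symbols 0.591% rose and 0.71% fell in Scribble null, 0.473% and 0.517% in Yap1 Taz null and 0.224% and 0.355% in triple null. Among the 79 genes 1 rose in Scribble null (Rpl30, by 0.61, limma adjusted p = 0.0415) and 0 fell. In Yap1 Taz null 1 rose (Rps18, by 0.81, adjusted p = 0.0392) and 1 fell. In triple null 1 rose (Rps18, by 0.87, adjusted p = 0.0363) and 2 fell. Rps3a1, which encodes a small-subunit protein, fell by 3.83 in Yap1 Taz null (adjusted p = 4.47e-06) and by 3.84 in triple null (adjusted p = 4.43e-06). It went from 3449 and 3654 TPM in wild type and 3813 and 3160 in Scribble null to between 231 and 266 TPM. It is not the parent of any member, so no sum with its copies was made. Whether copies took up its reads was not tested. Rpl29 fell by 1.86 in triple null (adjusted p = 0.000638). Summed with all copies found by sequence, as given above, Rpl30 fell in each comparison, while Rps18 and Rpl29 did not pass the test. The median log2 change of the 79 genes was -0.24, -0.24 and -0.15, beside 0.14, 0.14 and 0.12 over all tested symbols.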

How the data were processed

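RNA from SLAM-sorted cells was prepared with the RNeasy Mini, Ovation RNA-Seq v2 and Nextera XT kits, per the labels' protocols. The submitters' processing notes name TopHat and mm10; the quantifier is not given in the sources used here. The deposited per-sample tables hold TPM by gene symbol, computed by the authors. The deposited series-wide table holds a normalised signal by Ensembl identifier, whose unit its header does not name and whose totals run from 818363 to 888261; 94.7% of its identifiers matched a symbol.

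Members were found by symbol and level. TPM plus a pseudocount of 1 was put on the log2 scale, and limma 3.58.1 (R 4.3.3, trend) was fitted once over 8 libraries and all symbols at 1 TPM or more in 2 libraries. It was fitted again with each family summed, and was tested on simulated data. Sequences came from GENCODE M21 transcripts, aligned with Biopython 1.88 and searched with BLAST 2.17.0. The members, the gene lists and the rules were chosen with earlier results of these data known.

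Named were the called members, the 8 with the highest mean, their parents and sums, every called family, the 4 members on each side of the level, and the 3 with the lowest and 3 with the highest identity. Alternatives were another pseudocount, no filter, median ratio scaling, the series-wide table, a replicate block, a wider sum and leaving out each library. The contrast between backgrounds, and the wider sum for single families, were added after the data were seen.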

Additional observations from a re-analysis of the deposited data

Results flagged for a closer look

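For 5 patterns of values, covering 8 members, the change that goes with the Scribble-null label differed between libraries with Yap1 and Taz and libraries labelled as lacking them. The difference between the 2 changes, tested in the limma fit over all symbols, was 6.79 on the log2 scale for Rpl10-ps3, 6.60 for Rpl3-ps1, 6.29 for Rps13-ps1, 5.81 for each of Rpl35a-ps2, Rpl35a-ps3, Rpl35a-ps4 and Rpl35a-ps6, and 5.36 for Rpl34-ps1. Apart from Rpl10-ps3, these members were high in wild type alone and already low in Yap1 Taz null. Their differences thus restate the wild-type excess and cannot show that the change depends on Yap1 and Taz. Rpl10-ps3 is the one among them whose change from Yap1 Taz null to triple null, 1.70, lay far from 0. Its difference had an adjusted p of 0.0492, from 0.0184 to 0.221 with a library left out, and was 0.31 (adjusted p = 0.485) in the series-wide table. The values were 213 and 39.1 TPM in Yap1 Taz null and 594 and 152 TPM in triple null, so the groups overlapped.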

How the results depend on the processing

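Counts of called members of 9, 8 and 8, and 8 for any difference among the 4 genotypes, were within 1.5 times under the other pseudocount, no filter, median ratio scaling and the replicate block, and became 4 in each with the series-wide table. With each library left out in turn they ran from 6 to 11, 7 to 8, 7 to 8 and 6 to 10, the lone library being assumed to vary like the other groups. Libraries with the same replicate number showed no shared shift, with correlations of deviations between -0.053 and 0.026. This cannot tell whether they were prepared in pairs, which the labels do not say. Under the replicate block the called families numbered 0, 0 and 1. The families called changed as well as their number, as given above for the families named there. Shares over all symbols or rows are given only for the main fits, not for these settings. Called families were 5 in Scribble null and 1 in triple null with median ratio scaling, 0, 0 and 1 with no filter, 1 in triple null with the wider sum, and 2 for any difference in the series-wide table. With a library left out they ran from 0 to 10 (10 without Scribble null 2), 0 to 2, 1 to 2 and 1 to 6. The members' share of their families, 12.0%, 9.88%, 11.5% and 11.6% from wild type to triple null, became 18.3%, 15.3%, 17.7% and 18.8% in the series-wide table.

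Sign changes concerned values that had not passed the test in the per-sample tables, apart from the sums for Rpl29 and Rpl30; the turned sums for Rpl35a, and for Rpl3 in Yap1 Taz null and triple null, passed it in the series-wide table. In the order Scribble null, Yap1 Taz null and triple null, median ratio scaling, which moved the median of all symbols by -0.14, -0.14 and -0.12, gave Rps16-ps2 -0.11, -0.12 and -0.069. In Yap1 Taz null and triple null it gave Rpl28-ps1 -0.14 and -0.12, and the sum for Rpl10 -0.082 and -0.028. It also gave Rpl15-ps3 -0.14 in Scribble null, Rpl31-ps8 -0.038 and the sum for Rpl31 -0.098 in Yap1 Taz null, and Rpl10a-ps1 -0.098 and the sum for Rpl15 -0.12 in triple null. The series-wide table gave sums for Rpl35a of 1.19, 1.37 and 1.43, for Rpl3 of 0.65, 0.82 and 0.82, for Rps15a of 0.32, 0.13 and 0.077, and Rps16-ps2 of -0.21, -0.23 and -0.15. It gave Rpl10-ps3 0.10 and 0.13 in Yap1 Taz null and triple null, Rpl15-ps3 -0.10 in Scribble null, and in Yap1 Taz null Rps12-ps3 0.019, the sum for Rps12 0.020 and the sum for Rpl15 0.044. The wider sum gave Rpl30 -0.68, -0.82 and -0.74, Rps18 -0.20 in Scribble null and Rpl29 0.13 in triple null. The cause was not tested, except that the wider sum takes in more gene models by construction.

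Leaving out 1 library turned the sign of small changes, with these ranges. In Scribble null they were -0.51 to 0.46 for Rpl10a-ps1, -0.36 to 0.40 for Rpl15-ps3, -0.19 to 0.051 for Rpl31-ps8, -0.11 to 0.20 for Rps16-ps2 and -0.22 to 0.038 for the sum for Rpl31. In Yap1 Taz null they were -0.028 to 0.075 for Rpl28-ps1, -0.11 to 0.20 for Rps16-ps2, and for sums -0.15 to 0.051 for Rpl15, -0.0088 to 0.13 for Rpl31 and -0.11 to 0.014 for Rps12. In triple null they were -1.74 to 0.22 for Rpl10-ps3, -0.45 to 0.52 for Rpl10a-ps1, -0.033 to 0.070 for Rpl28-ps1, -0.088 to 0.22 for Rps16-ps2, -0.10 to 0.023 for Rps23-ps1, and for sums -0.090 to 0.12 for Rpl15 and -0.15 to 0.039 for Rps15a. Limits: TPM carries no depth, 2 libraries a group give 4 residual degrees of freedom, and how reads shared by copy and parent were assigned is not stated.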

Other observations

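A symbol under the level in the per-sample tables had the most uneven values of all in the series-wide table. Rpl38-ps2, with 0 differences from Rpl38, was listed at 0 TPM in all 8 libraries, while the series-wide table gave it 15297 in wild type 1, 29241 in triple null 2 and between 5.64 and 23.6 in the other 6. Rpl38 itself read 2882 and 2476 in those libraries and between 2726 and 4329 in the others. Rps2-ps11 read 10.1 TPM in Scribble null 1 and at most 1.54 TPM in any other library of the per-sample tables.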
